A study of Homo sapiens with 16 samples.

Results

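Chromosome 19 carries the largest collection of zinc finger transcription factor genes in the human genome, and 216 of them were read here in lung adenocarcinoma cells. They were taken by position, name and level: protein-coding genes on chromosome 19 whose symbol starts with ZNF and whose FPKM (sequenced fragments scaled for gene length and library size) was 1 or more in at least 2 libraries. The files annotate 249 such coding genes among 58735 genes in all, so 33 were below the level rule, and 30 of these reached 1 FPKM in no library. Only 14 libraries with matched labels were counted, so 216 is a lower bound for the rule as stated. At its edge, the members ZNF599, ZNF284, ZNF781 and ZNF382 had a second-highest FPKM of 1.01, 1.02, 1.10 and 1.13, and the nearest genes outside were ZNF490 at 0.986, ZNF763 at 0.920 and ZNF442 at 0.910.

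The study was set up to look for genes altered by resistance to drugs against EGFR and for agents that act on such genes. NCI-H1975, an established lung adenocarcinoma line with EGFR mutations for both activity and drug resistance, was sequenced as control, with magnolin (a lignan of Flos Magnoliae, the magnolia flower bud) and with the chloroform fraction of Flos Magnoliae, in 4 libraries per group. HCC827, a lung adenocarcinoma line with an activating EGFR deletion, was sequenced untreated in 2 libraries, and its resistant derivative was not analysed here. The labels give genotype WT for every library used, and no dose, exposure time or control vehicle, so the agents may differ in dose as well as in content. Replicates 1 and 2 of the NCI-H1975 groups stand in 1 deposited table (set A), replicates 3 and 4 in another (set B) and HCC827 in a table of its own. Each is 1 cell line, and nothing in the labels says that replicates were separate cultures, so each p-value reflects library-to-library spread alone, which may be technical.

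Most ZNF genes of chromosome 19 encode proteins with a row of C2H2 fingers, each finger a short loop held by zinc that reads a few bases of DNA, and many carry a KRAB domain at the other end. A KRAB domain binds TRIM28 (KAP1), which brings the methyltransferase SETDB1, HP1 proteins and DNA methylation to the bound site and silences it. Many of these proteins bind transposable elements, and the genes themselves arose by tandem duplication, so neighbours on the chromosome resemble each other in protein and in promoter.

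The members fell into 9 position clusters, numbered along the chromosome, in which neighbouring ZNF genes lay no more than 1 Mb apart, and 8 members lay outside. Cluster 4, at 19.7 to 24.1 Mb near the centromere, held 30 members of 37 annotated, and 6 of them were lower in set B with the chloroform fraction, as given further on. Their promoters are shown because they share a short sequence. Each line gives the gene's strand 5′ to 3′ from RefSeq (GRCh38.p14), from 250 bases before the RefSeq start to the end of the last copy of CCAATCAG. The capitals mark that sequence, which contains the CCAAT box, a promoter element known to be bound by the factor NF-Y.
ZNF93: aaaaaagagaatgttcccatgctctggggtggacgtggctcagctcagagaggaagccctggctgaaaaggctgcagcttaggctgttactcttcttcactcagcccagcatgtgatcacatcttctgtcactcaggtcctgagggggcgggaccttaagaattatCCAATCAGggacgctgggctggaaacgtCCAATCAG
ZNF85: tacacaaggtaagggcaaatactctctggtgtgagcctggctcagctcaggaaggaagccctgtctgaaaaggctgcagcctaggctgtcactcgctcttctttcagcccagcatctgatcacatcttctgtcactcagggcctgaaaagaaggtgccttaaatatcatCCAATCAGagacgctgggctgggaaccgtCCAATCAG
ZNF100: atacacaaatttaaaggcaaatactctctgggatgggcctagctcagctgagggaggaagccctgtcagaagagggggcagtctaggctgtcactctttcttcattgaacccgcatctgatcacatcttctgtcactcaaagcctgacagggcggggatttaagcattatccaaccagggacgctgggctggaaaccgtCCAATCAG
ZNF724: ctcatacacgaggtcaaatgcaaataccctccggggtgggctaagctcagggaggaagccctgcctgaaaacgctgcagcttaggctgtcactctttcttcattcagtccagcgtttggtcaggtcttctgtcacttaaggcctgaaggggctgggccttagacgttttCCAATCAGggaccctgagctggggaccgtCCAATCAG
ZNF714: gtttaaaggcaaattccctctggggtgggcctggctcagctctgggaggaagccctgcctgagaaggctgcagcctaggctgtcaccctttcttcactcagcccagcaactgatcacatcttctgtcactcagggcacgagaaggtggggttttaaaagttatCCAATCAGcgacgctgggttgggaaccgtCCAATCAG
ZNF675: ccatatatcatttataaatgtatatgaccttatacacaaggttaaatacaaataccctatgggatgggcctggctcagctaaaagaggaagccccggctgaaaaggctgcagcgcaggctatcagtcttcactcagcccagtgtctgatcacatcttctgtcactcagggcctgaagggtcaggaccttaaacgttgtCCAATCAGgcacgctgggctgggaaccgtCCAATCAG
The windows are chr19:19900696-19900897 on the plus strand for ZNF93, chr19:20923001-20923206 plus for ZNF85, chr19:21767623-21767829 minus for ZNF100, chr19:23250439-23250644 minus for ZNF724, chr19:21081953-21082152 plus for ZNF714 and chr19:23687228-23687462 minus for ZNF675.

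Promoters of 300 bases (250 before and 50 after the start) matched 193 of the 216 members by symbol. CCAATCAG, searched on both strands, was in 26 of 26 cluster 4 promoters, always on the gene's own strand, and in 22 of 167 promoters of members elsewhere (13.2%). It was in 1136 of 27305 promoters of all genes (4.16%). In cluster 4 there were 13 promoters with 1 copy and 13 with 2 or more, and the last copy ended 15 to 76 bases before the start (median 49). The shorter CCAAT, which lies within it, was in 26 of 26, in 47.3% of the other members and in 35.7% of all promoters. The longest run shared by the 6 printed promoters was TCTTCTGTCACT, found in 14 of 26 cluster 4 promoters, 2 of 167 other members and 23 of all 27305. Cluster 4 promoters held the GC-rich GGGCGG in 19 of 26, the other members in 109 of 167 (65.3%) and all promoters in 44.6%. None of the 26 held ACTTCCGG, an ETS-type sequence that was in 43 of 167 other members (25.7%) and in 4.44% of all promoters. Their median GC content was 55.8%, against 61.0% in the other members, with a median of 10 CpG sites against 22. The TATA sequence TATAAA was in 3 of the 26, in 1 of 167 other members and in 12% of all promoters. The overlapping TCCAATCA was also searched, and was in 26 of 26, in 10.8% of the other members and in 1.61% of all promoters. These matches describe the letters in these windows and are no test. None of the sequences searched was in the analysis plan, so CCAATCAG may have been chosen from these same promoters. TCTTCTGTCACT was picked after the sequences were seen.

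Most members were expressed at low levels. Over the 14 libraries their mean FPKM ran from 0.58 to 26.1 with a median of 3.59; 17 members averaged 10 FPKM or more, 52 lay from 5 to 10, 90 from 2 to 5 and 57 below 2. All 14 libraries reached 1 FPKM for 137 members. Together the members took 0.474% to 0.757% of reads in NCI-H1975 and 0.287% and 0.292% in HCC827. The highest mean over the 14 libraries belonged to ZNF146 (chr19:36214602-36238774, hg38, plus strand), a protein made almost only of fingers, at 20.9 to 39.4 FPKM in the 12 NCI-H1975 libraries and 23.2 and 21.8 in HCC827. Within NCI-H1975 ZNF841 was higher, at a mean of 28.6 FPKM against 26.7 for ZNF146, but it had 4.48 in HCC827. Over the 14 libraries ZNF841 averaged 25.2, ZNF121 20.4, ZNF317 19.9, ZNF266 19, ZNF787 17.8, ZNF114 17.4, ZNF358 16.8, ZNF432 14.6 and ZNF581 14.1. The most abundant member of each cluster in NCI-H1975, in order along the chromosome, was ZNF556, ZNF121, ZNF700, ZNF43, ZNF302, ZNF146, ZNF45, ZNF841 and ZNF787. In HCC827 it was ZNF57, ZNF358, ZNF627, ZNF486, ZNF302, ZNF146, ZNF428, ZNF480 and ZNF787, so 3 of the 9 clusters had the same leading gene in both lines.

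Members with a known role were spread over this range. ZNF91, which represses SVA retrotransposons, had 3.92 to 8.95 FPKM in NCI-H1975 and 2.04 and 2.34 in HCC827. ZNF93, which binds LINE retrotransposons, had 3.97 to 12.4 and 1.89 and 1.73. ZNF274, which brings SETDB1 to the 3′ ends of ZNF genes, had 9.03 to 18.5 and 5.23 and 4.65. ZNF350 (ZBRK1, a partner of BRCA1) had 6.13 to 9.49 and 0.963 and 1.35, so both HCC827 libraries were below all NCI-H1975 libraries for each of these 4 genes. ZNF331, an imprinted gene, had 4.03 to 12.5 in NCI-H1975, and ZNF420 (Apak, a negative regulator of p53) had 1.11 to 3.26. The plot of member levels by library shows the spread over all of them.

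**Figure D1:**
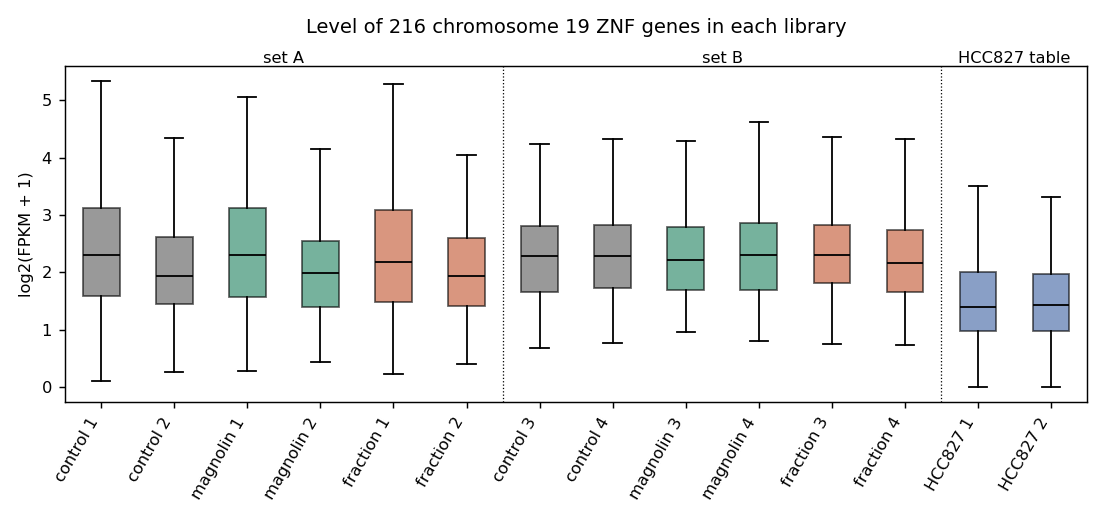
Levels of the 216 chromosome 19 ZNF genes in each of 14 libraries as log2(FPKM + 1). Boxes span the quartiles, the line is the median and whiskers reach the last value within 1.5 times the box height. Replicate 1 libraries of set A reach higher than replicate 2, and both HCC827 libraries lie lower.

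By protein, 183 members had a KRAB pattern, 2 had a SCAN pattern without KRAB (ZNF444 and ZNF446) and 31 had neither; ZNF274 had both. The count of C2H2 finger patterns ran from 0 (ZNF738) to 31 (ZNF91) with a median of 12. Members with the KRAB pattern had a median of 13 fingers and a median level of 3.30 FPKM, and those with neither pattern had 9 fingers and 5.22 FPKM. Cluster 4 was almost wholly of the KRAB class, with 29 of 30 members. These classes come from short patterns searched in the longest reading frames of GENCODE release 29 transcripts, and do not say which isoform was read. A gene without a match may still encode the domain. The KRAB pattern was relaxed after it was first run.

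Depth was 15.9 to 21.3 M reads per library, rebuilt from FPKM and gene length, and the median member had 143.5 to 385.5 reads. Reads of overlapping genes cannot be divided with certainty: 79 members overlap another coding gene, 53 of them on the same strand, among them ZNF581 with ZNF580 and ZNF432 with ZNF841. Near-identical family members may also share reads, since the counting rule is not given in the sources used here. All 8 epithelial markers checked (EPCAM, KRT7, KRT8, KRT18, KRT19, CDH1, CLDN4, CLDN7) were above 1 FPKM in every library. The levels of EPCAM, KRT7, CDH1, CLDN4 and CLDN7 differed widely between set A libraries, as given further on. Of the markers of other cells, PTPRC of blood cells reached at most 0.013 FPKM, and CD3E of T cells and HBB of red cells were listed at 0. Others passed 1 FPKM: COL1A1 of the fibroblast list had 1.391 to 3.115 over all libraries. CD79A of the blood list reached 3.73, and CDH5 and PECAM1 of the endothelial list reached 4.39 and 1.82. The summed blood, fibroblast and endothelial lists stayed at or below 3.99, 3.18 and 6.24 FPKM. In bulk RNA, fewer cells of a kind and less RNA per cell cannot be told apart.

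In set A the ZNF genes differed between replicate 1 and replicate 2 in all 3 groups alike, and the direction differed by cluster. In all 3 groups, replicate 1 was above replicate 2 for 28 of 30 members of cluster 4, 34 of 36 of cluster 8 and 56 of 57 of cluster 9, with median differences of 0.79, 0.84 and 0.61 in log2(FPKM + 1); over all 13103 tested genes 31.6% were higher in replicate 1 in all 3 groups. In the other direction, replicate 2 was above replicate 1 for 3 of 4 members of cluster 1, 12 of 14 of cluster 2, 15 of 18 of cluster 3 and 4 of 4 of cluster 5, with medians of -0.31, -0.63, -0.45 and -0.53, and 32% of all genes were. Clusters 6 and 7 were mixed, at medians of -0.18 and 0.03. After rescaling all libraries by their median ratio the counts for clusters 4, 8 and 9 were 29, 34 and 54, and those for clusters 1, 2, 3 and 5 were 3, 12, 14 and 4.

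ZNF257, a KRAB protein of cluster 4, had the widest gap, with 15.5 FPKM in replicate 1 and 2.06 in replicate 2 of the control, 10.1 and 1.5 with magnolin, and 10.8 and 2.30 with the fraction. Its replicates 3 and 4 lay between 1.35 and 2.30, so replicate 1 stood alone. ZNF432 of cluster 8 had 43.2 and 10.1, 30.8 and 9.78, and 29.4 and 11 in the same order. ZNF358 of cluster 2 went the other way, with 6.36 and 23.2, 8.86 and 19.6, and 9.97 and 21.4. These genes are the extremes of 199 members tested in set A: 17 were at least 2-fold higher in replicate 1 in every group (8.54%, against 3.02% of 13103 genes), and ZNF358 alone was at least 2-fold lower (0.503%, against 2.24%).

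Other coding genes that lie within the clusters went the members' way in some clusters and not in others. Only genes named ZNF were left out of this set, so it holds zinc finger genes of other names. In cluster 9 these include ZSCAN1, ZSCAN5A, ZSCAN18, ZSCAN22, ZIK1, ZFP28, PEG3 and FIZ1. CCDC106 and TRAPPC2B of cluster 9 overlap members on the same strand. Of 20 other coding genes within cluster 9, 16 were higher in replicate 1 in all 3 groups, with a median of 0.62, and of 23 within cluster 2, 12 were lower in all 3, with a median of -0.26. Of 18 within cluster 7, 8 were higher and 2 lower in replicate 1, with a median of 0.35 where the members' was 0.03, and of 3 within cluster 3, 1 was higher and 1 lower. Clusters 1, 4 and 5 held no other coding gene that was tested. Over all tested genes the median difference was 0.00, over ZNF genes of other chromosomes 0.05 (n = 193) and over other coding genes of chromosome 19 -0.17 (n = 643). The summed level of the 8 epithelial markers was 1259 to 1491 FPKM in replicate 1 and 407 to 596 in replicate 2, and the summed blood list, carried by CD79A, was 3.31 to 3.99 and 0.35 to 0.76. Over the set A libraries EPCAM had 9.622 to 193.001 FPKM, CDH1 4.883 to 74.243 and CLDN7 2.917 to 66.747. CLDN4 had 9.311 to 110.678 and KRT7 51.991 to 405.824. In proportion KRT8, KRT18 and KRT19 ranged by less, at 117.935 to 171.265, 96.306 to 204.738 and 100.74 to 315.94. In set B EPCAM had 7.649 to 12.969 and CDH1 4.892 to 9.393. These ranges were not split by replicate. The part of the epithelial and blood lists in the differences was not tested. The summed level of the members was 1250 to 1388 FPKM in replicate 1 and 885 to 894 in replicate 2, without overlap.

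**Figure D2:**
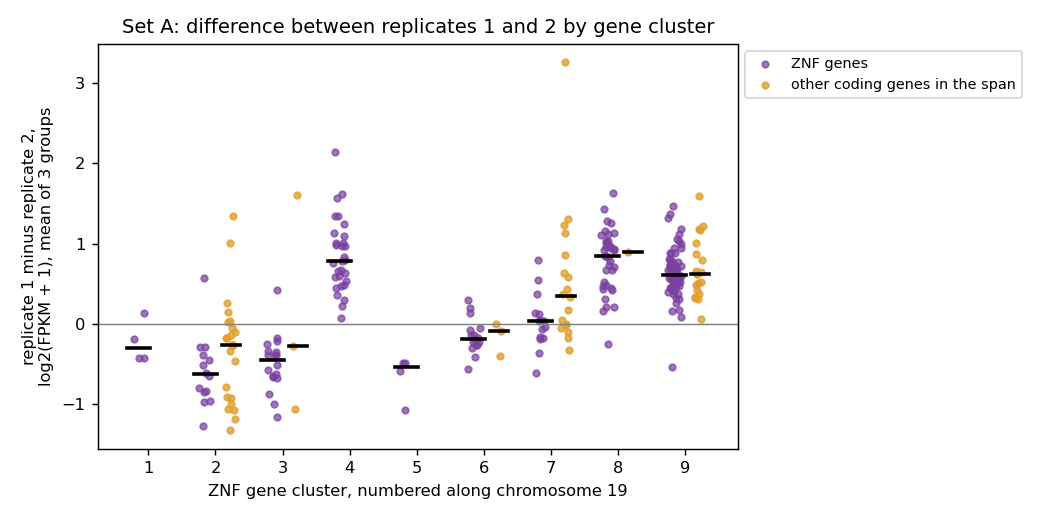
Replicate 1 minus replicate 2 in set A, as the mean over control, magnolin and fraction of the difference in log2(FPKM + 1), for each tested ZNF gene and each tested other coding gene that starts within the same cluster; bars are medians. Clusters 4, 8 and 9 lie above 0, with medians of 0.79, 0.84 and 0.61, and clusters 2, 3 and 5 below it. The other coding genes include zinc finger genes not named ZNF.

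In set B the chloroform fraction changed few ZNF genes. Of 216 members, 16 passed the test (7.41%; limma on log2(FPKM + 1), adjusted p under 0.05), with 7 higher and 9 lower than control. Without the filter on low values 4 of these calls were kept (ZNF581, ZNF714, ZNF93 and ZNF556), and the others had adjusted p from 0.0508 (ZNF83) to 0.126 (ZNF878). Over all 14673 genes tested 19.9% passed, 8.33% higher and 11.6% lower, so the members' share was below the background. The median change of the members was -0.01, as over all genes, and the median size of a change was 0.15 against 0.23. Of all genes, 702 changed by at least 2-fold on this scale and no member did. The other coding genes of chromosome 19 passed in 23.0% of 648 and the ZNF genes of other chromosomes in 8.91% of 202.

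Of the 9 members that fell, 6 lie in cluster 4. ZNF93 (chr19:19900913-19963464, hg38, plus strand) had 8.17 and 8.38 FPKM in control, 7.20 and 7.63 with magnolin, and 4.93 and 3.97 with the fraction. Both fraction libraries were below all others. The means were 8.28 ± 0.148 (SD, n = 2) in control and 4.45 ± 0.678 with the fraction, a change of -0.77 ± 0.106 (SE) in log2(FPKM + 1) with an adjusted p of 0.00645 in limma.

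ZNF714, which lacks the KRAB pattern and has 12 fingers, had 9.13 and 9.59 FPKM in control and 6.42 and 6.65 with the fraction (-0.46 ± 0.0751, adjusted p = 0.0111 in limma). ZNF85 had 6.27 and 7.55 in control and 4.77 and 4.38 with the fraction (-0.50 ± 0.107, adjusted p = 0.0259). ZNF100 had 5.55 and 5.59 in control and 4.02 and 3.42 with the fraction (-0.48 ± 0.0984, adjusted p = 0.0225). For all 3, the fraction libraries were below both control and both magnolin libraries. ZNF724 went from a mean of 3.75 to 2.44 FPKM (adjusted p = 0.0304) and ZNF675 from 5.90 to 4.35 (adjusted p = 0.0461), also without overlap, and with the replicate number as a block these 2 did not pass, at adjusted p = 0.0554 and 0.0807. The promoters of these 6 genes are those printed above.

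The whole of cluster 4 leaned the same way by less. Of its 30 members 24 were below 0, the median change was -0.17, and 15 were lower without overlap between the libraries (32.7% of all genes were) and 3 higher (29.2% of all genes). Rescaling, a voom fit on rebuilt reads and a pseudocount of 0.1 gave medians of -0.14, -0.23 and -0.24 with 24 of 30 below 0 each time. ZNF43, the most abundant gene of the cluster in NCI-H1975, had 9.42 and 9.76 FPKM in control and 7.66 and 5.54 with the fraction (-0.49, adjusted p = 0.0561), and ZNF91 had 8.27 and 7.96 against 8.95 and 6.47 (-0.08, adjusted p = 0.729). Outside cluster 4, members whose promoter held CCAATCAG had a median change of -0.05 (n = 22) and those without it 0.03 (n = 145). With the fraction in set A these medians were -0.04 (n = 20) and -0.05 (n = 132). These values describe unequal sets with no test. All 26 matched cluster 4 promoters hold CCAATCAG, so its presence does not separate called from uncalled genes there.

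The 3 other members that fell lie in clusters 3 and 8. ZNF878, a low gene of 29 to 130 rebuilt reads in these libraries, had 3.39 and 4.46 FPKM in control, 2.28 and 2.82 with magnolin and 1.03 and 2.09 with the fraction. The fraction mean was 0.398 times the control mean and the change was -0.97 ± 0.23 (adjusted p = 0.0352 in limma), the largest fall among members; on the linear scale it thus exceeded 2-fold. ZNF415 had 4.52 and 4.41 in control and 2.99 and 2.77 with the fraction (adjusted p = 0.0192), and ZNF880 had 13 and 12.3 against 9.71 and 10.1 (adjusted p = 0.0361). None of the 3 overlapped between control and fraction. Of the called genes, ZNF878, ZNF415, ZNF724 and ZNF324 share the strand and part of their span with another annotated coding gene (AC008770.1, ZNF347, AC092329.3 and ZNF446), so their reads may include that gene's, as may those of ZNF581 with ZNF580 and CCDC106.

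The 7 members that rose come from 4 places. ZNF581 (chr19:55635459-55645622, hg38, plus strand), a small protein with 4 finger patterns and no KRAB pattern, had 9.39 and 8.40 FPKM in control, 10.2 and 10.8 with magnolin and 14.9 and 16.9 with the fraction. Its means were 8.89 ± 0.699 and 15.9 ± 1.48 (SD, n = 2), a change of 0.77 ± 0.0969 with an adjusted p of 0.00499 in limma, the largest rise among members. ZNF580, which overlaps it on the same strand, had 16.5 and 15.1 in control and 13.4 and 19 with the fraction (0.02, adjusted p = 0.954), with overlap. ZNF837 had 4.44 and 4.18 in control and 6.80 and 8.08 with the fraction (0.66 ± 0.116, adjusted p = 0.0138), and ZNF324 had 2.90 and 2.96 against 3.84 and 4.34 (0.37, adjusted p = 0.0455); all 3 called genes are in cluster 9.

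ZNF83 of cluster 8, which lacks the KRAB pattern and has 14 fingers, had 10.9 and 11.6 FPKM in control and 19.5 and 16.1 with the fraction (0.61 ± 0.108, adjusted p = 0.0142 in limma). ZNF556 of cluster 1 had 5.20 and 4.34 in control, 5.95 and 5.89 with magnolin and 7.78 and 7.39 with the fraction (0.58 ± 0.0986, adjusted p = 0.0127). Its magnolin libraries lay between the other groups. ZNF554, also of cluster 1, had 3.02 and 3.33 against 5.05 and 4.33 (adjusted p = 0.0402), and ZNF333, outside the clusters, had 1.07 and 1.05 against 1.94 and 2.07 (adjusted p = 0.0454). With the replicate number as a block, ZNF324, ZNF554, ZNF333 and ZNF880 did not pass (adjusted p = 0.0810, 0.0673, 0.0817 and 0.0717), and 10 of the 16 were called. Cluster 9 as a whole had a median of 0.13, with 36 of 58 members above 0.

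**Figure D3:**
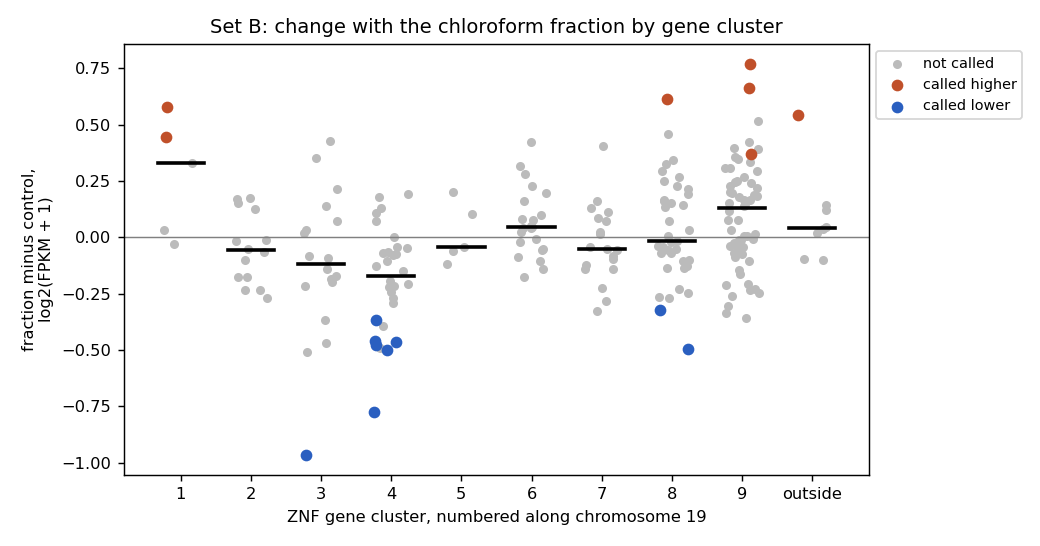
Change with the chloroform fraction in set B, as fraction minus control in log2(FPKM + 1), for each of 216 ZNF genes by position cluster; bars are medians and colours mark the 7 genes called higher and the 9 called lower (limma, adjusted p under 0.05). Cluster 4 has 6 of the called falls and a median of -0.17, and cluster 9 has 3 of the called rises and a median of 0.13.

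**Figure D4:**
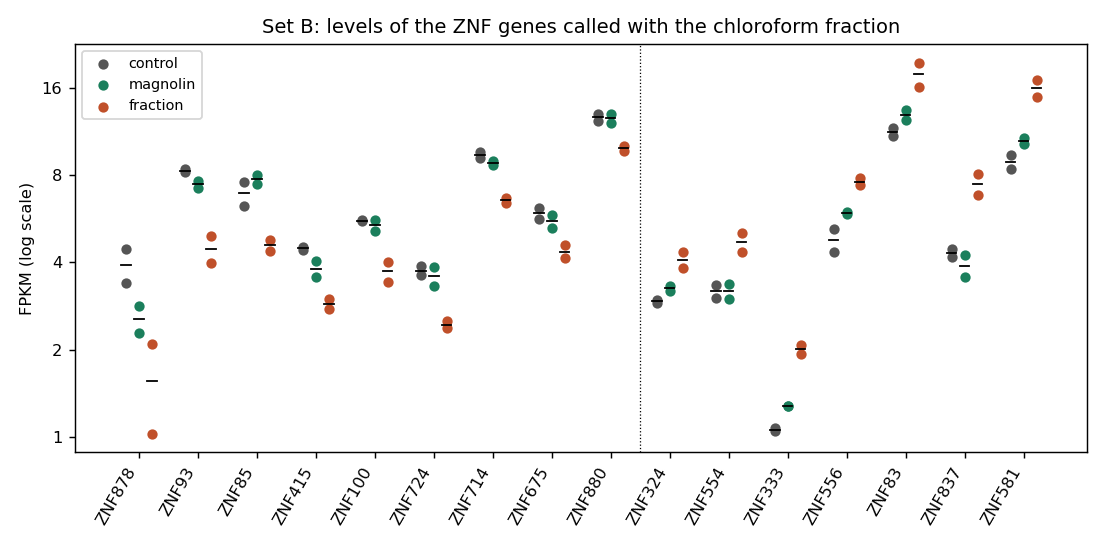
FPKM on a log scale of the 16 ZNF genes called in set B between fraction and control, in both libraries of control, magnolin and fraction; points are libraries and short bars are means. Genes left of the dotted line are the 9 that fell, and those right of it the 7 that rose.

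Between the fraction and the control, KRAB members had a median change of -0.02, with 4 called higher and 7 lower of 183. Members with neither pattern had 0.04, with 3 higher and 2 lower of 31. Mitochondrial reads were 5.83% and 5.84% of control, 6.38% and 6.40% of magnolin and 7.04% and 8.17% of fraction libraries, and the summed epithelial markers 631 to 640, 453 to 461 and 431 to 474 FPKM. The summed endothelial list, carried by CDH5 and PECAM1, was 4.29 and 6.24 FPKM in control, 1.47 and 1.69 with magnolin and 0.83 and 0.94 with the fraction. The part of these measures in the changes was not tested. The number of calls changed when a library was left out, also when it was a magnolin library, which is not in this contrast. Each such fit leaves 1 library in a group and fewer values for the shared spread. The part of single libraries in the calls was therefore not tested.

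Set against magnolin instead of control, the fraction again gave 16 calls among 216 members (7.41%, against 14.9% of all genes), 5 higher (5.55% of all genes) and 11 lower (9.36%). The fraction libraries are the same in both comparisons, so the values are given side by side and not as a second support. After median-ratio rescaling 5 members were higher and 6 lower, and all genes split into 1001 higher and 976 lower in place of 814 and 1374. ZNF837 rose from a mean of 3.89 to 7.44 FPKM (0.79 ± 0.116, adjusted p = 0.0134 in limma), ZNF581 from 10.5 to 15.9 (adjusted p = 0.0198) and ZNF135 from 2.62 to 3.71 (adjusted p = 0.0499). ZNF554 and ZNF83 were the other 2 that rose.

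Of the 11 members lower than with magnolin, 6 were in cluster 4: ZNF85, ZNF726, ZNF93, ZNF486, ZNF100 and ZNF714. ZNF726 had 2.69 and 2.35 FPKM with magnolin, 1.74 and 2.21 in control and 1.18 and 1.34 with the fraction (-0.64 ± 0.144, adjusted p = 0.0376 in limma). ZNF563 of cluster 3 had 2.44 and 2.35 with magnolin and 1.36 and 1.13 with the fraction (-0.60 ± 0.126, adjusted p = 0.0317). ZNF180 of cluster 7 and ZNF888, ZNF480 and ZNF880 of cluster 8 completed the list (ZNF888 overlaps AC010487.3 on its strand), with fraction means 0.667, 0.692, 0.719 and 0.789 times those of magnolin. Without either magnolin library no member passed in limma (31 and 19 had an unadjusted p under 0.05), without control replicate 3 or 4 there were 4 and 3, without fraction replicate 3 there were 27, and with the replicate block there were 4 (ZNF85, ZNF93, ZNF581 and ZNF837).

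Magnolin itself did not move a member past the threshold in set B. Of 216 members 0 were called in limma (0.627% of all genes were), and 0 by voom or with the replicate block. In limma 10 members had an unadjusted p under 0.05, as did 2083 of all 14673 genes. The median change was 0.03, with the 216 members between -0.47 (ZNF878) and 0.36. ZNF556 had 5.95 and 5.89 FPKM against 5.20 and 4.34 in control (0.27, adjusted p = 0.310), ZNF581 10.2 and 10.8 against 9.39 and 8.40 (0.22, adjusted p = 0.388), and ZNF93 7.20 and 7.63 against 8.17 and 8.38 (-0.14, adjusted p = 0.612). None of these 3 overlapped with control, as was so for 68 members upward and 38 downward; the shares over all genes were 28.4% and 23.9%.

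Set A gave no call for either agent, over members or over all genes (0% of 13103). In limma 0 of 199 members had an unadjusted p under 0.05 in any of its 3 comparisons. This main fit had no term for the replicate number. The gap between replicate 1 and replicate 2 thus counted as spread, and the fit could miss a response. With the replicate number as a block, 130 genes were called with magnolin and 24 with the fraction, none of them members, while 11 members had an unadjusted p under 0.05 with magnolin and 0 with the fraction. The voom fit called 0 members in each of them. The member with the largest difference was ZNF554, with 2.72 and 5.83 FPKM with magnolin and 1.84 and 2.11 in control (0.76, adjusted p = 1.0 in limma), without overlap. The cluster 4 genes that fell in set B had wide spreads here: ZNF93 had 12.4 and 6.46 FPKM in control, 9.36 and 3.99 with magnolin and 9.15 and 6.26 with the fraction. ZNF581 had 17.4 and 10.2, 20.5 and 13.6, and 22.8 and 9.62 in that order. Each replicate 1 library was above each replicate 2 library for both genes. Cluster 4 had a median change of -0.12 with the fraction, with 26 of 30 members below 0. This was not particular to cluster 4. With the fraction cluster 6 had -0.15 (14 of 16 below 0), cluster 2 had -0.10 (12 of 14) and all members -0.07. Clusters 1, 7 and 9 had 0.06, 0.02 and 0.02. With magnolin cluster 4 had -0.19, with 21 of 30 below 0, where in set B it had 0.03, with 13 of 30 below 0. Whether the response differed between set A and set B was not tested.

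Fitted over all 4 replicates with a term for each replicate number, 0 of 216 members were called for the fraction (0.156% of all genes were). An unadjusted p under 0.05 in limma was found for 23 members and for 2737 of all 15428 genes. The smallest adjusted p was 0.134, shared by ZNF878 (-0.64 ± 0.161) and ZNF415 (-0.37 ± 0.0943). ZNF878 had 2.91, 2.10, 3.39 and 4.46 FPKM in control replicates 1 to 4 and 1.96, 1.68, 1.03 and 2.09 with the fraction, so the groups did not overlap. For ZNF93 the change was -0.50 ± 0.177 (adjusted p = 0.213) and for ZNF581 0.46 ± 0.165 (adjusted p = 0.217). Magnolin gave 0 calls among members and among all genes (0%) in limma. At an unadjusted p under 0.05 were 7 of 216 members and 1419 of 15428 genes. Voom called 0 members for both agents.

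A list of 21 measured genes was read for corepressors. It holds TRIM28, SETDB1 and the HP1 genes CBX1, CBX3 and CBX5, through which KRAB proteins silence DNA. It also holds more general heterochromatin and DNA methylation genes, such as SUV39H1 and UHRF1, so its counts do not stand for the KRAB route alone. TRIM28 itself had 176 and 178 FPKM in set B control and 142 and 185 with the fraction (-0.13, adjusted p = 0.508 in limma), with overlap, and SETDB1 had 8.22 and 8.78 against 8.13 and 7.80 (-0.08, adjusted p = 0.486). With the fraction 9 genes of the list fell and 1 rose, with a list median of -0.18, and 11.6% and 8.33% of all genes did so. UHRF1, which guides DNA methylation to newly copied DNA, had 34.4 and 39.6 in control and 14.1 and 20.3 with the fraction (-1.08, adjusted p = 0.0100). DNMT1, the maintenance DNA methyltransferase, had 59.6 and 61.2 against 35.6 and 40.2 (-0.66, adjusted p = 0.00432). SUV39H1, an H3K9 methyltransferase, had 8.74 and 8.66 against 4.12 and 4.92 (-0.82, adjusted p = 0.00392). The others that fell were SUV39H2, ATF7IP, CBX3, CHD3, HDAC1 and PPHLN1, and MORC2 rose from 22.9 to 27.9. Against control, CBX1 and CBX5 were not called (adjusted p = 0.156 and 0.955 in limma). Between the same fraction libraries and magnolin, 8 of the 21 were called lower and 0 higher, beside 9.36% and 5.55% of all genes. CBX1 was among these 8, at a mean of 20.8 against 28.7 FPKM (-0.45, adjusted p = 0.0192 in limma). The list was called 0 times in set A, with magnolin against control in set B and over both sets in limma.

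Untreated HCC827 cells had lower levels of most members than any NCI-H1975 library, whatever its treatment. Both HCC827 libraries were below all 12 NCI-H1975 libraries for 129 of 216 members (59.7%), against 21.5% of all genes at the same level, 25% of other chromosome 19 coding genes (n = 708) and 20.8% of ZNF genes of other chromosomes (n = 212). They were above all 12 for 7 members (3.24%, against 16.1% of all genes). The tables were normalized separately, so this is a description with no test. After median-ratio rescaling over the 14 libraries the counts were 115 below (53.2%, against 17.9%) and 8 above (3.70%, against 19.7%). The median level was 3.91 FPKM in NCI-H1975 and 1.63 in HCC827, where 4 and 5 members were listed at 0. The summed epithelial markers were 1979 and 2159 FPKM in HCC827, above every NCI-H1975 library, and their part was not tested.

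The share of members below differed by cluster. It held for 5 of 5 members of cluster 1, 27 of 30 of cluster 4, 34 of 37 of cluster 8, 11 of 14 of cluster 2 and 12 of 18 of cluster 3, but for 16 of 58 of cluster 9 and 1 of the 8 outside the clusters. ZNF90 and ZNF676 of cluster 4 and ZNF556 of cluster 1 were listed at 0 in both HCC827 libraries and had 2.69 to 7.37, 1.63 to 9.28 and 2.50 to 7.78 FPKM in NCI-H1975. ZNF432 had 9.62 to 43.2 in NCI-H1975 and 1.04 and 1.22 in HCC827, and ZNF714 4.73 to 19.8 and 0.264 and 0.316. Of the KRAB members 63.9% were below, and of those with neither pattern 38.7%.

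Members higher in HCC827 were few. ZNF780A had 0.294 to 1.10 FPKM in NCI-H1975 and 2.57 and 2.67 in HCC827, the only member at least 2-fold higher in log2(mean FPKM + 1) (0.463% of members, against 8.2% of all genes at the same level). At least 2-fold lower were 78 members (36.1%, against 9.87% of all genes). A gene could meet the level rule through NCI-H1975 alone, which supplies 12 of the 14 libraries, and the all-gene shares use the same rule. ZNF574 had 1.59 to 2.95 and 5.45 and 5.55, and ZNF524 4.67 to 10.9 and 13.3 and 13.3. ZNF676, ZNF90, ZNF780A, ZNF574, ZNF57 and ZNF627 were named after their values were seen.

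**Figure D5:**
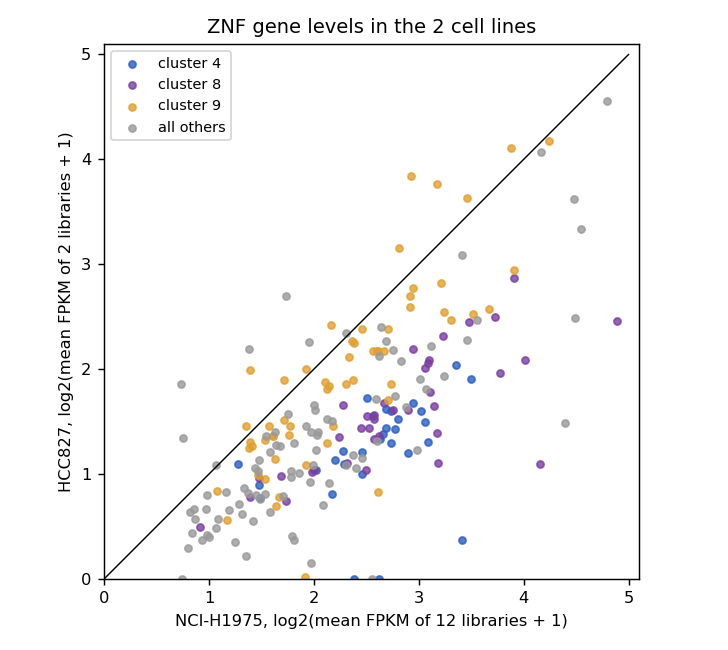
Mean level of each of 216 ZNF genes in NCI-H1975 (12 libraries) and in HCC827 (2 libraries), both as log2(mean FPKM + 1) of separately normalized tables; the line marks equal levels. Most points, above all those of clusters 4 and 8, lie under the line, with medians of 3.91 FPKM in NCI-H1975 and 1.63 in HCC827.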

How the data were processed

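RNA sequencing libraries of NCI-H1975 (12) and HCC827 (2) were used. Per the labels' protocols, RNA passed an Agilent quality control before NEB library construction. The authors deposited FPKM per gene in 3 tables with hg38 as the build, per the submitters' processing notes; the sources used here name no aligner, counter or strand setting. Of the HCC827 columns, 2 match no label and were not used.

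Reads were rebuilt from FPKM and gene length, whole within a tolerance of 0.05 for 100.0% of values up to 2000 reads, and used for depth and for an alternative test only. Precision of low genes is limited by counting at this depth. All 216 members' coordinates match GENCODE release 29.

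Genes with at least 1 FPKM in at least 2 libraries of a fit were tested on log2(FPKM + 1) with limma 3.58.1 (trend, R 4.3.3), the 3 groups of a set sharing 1 spread, with Benjamini-Hochberg adjustment over all genes and a threshold of 0.05. Such fold changes understate changes of low genes. The same test was run on simulated set B values with independent normal noise and the fit's own spread. That run cannot speak to technical replicates or to differences that libraries share. Alternatives were a pseudocount of 0.1, no filter, median-ratio rescaling, voom on rebuilt reads, the replicate block and leaving out each library.

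Groups share replicate numbers. Deviations of same-numbered libraries correlated at 0.29 to 0.84 in 12 of 12 pairs. These values span both tables and so include the difference between them. Within set A they were 0.742 to 0.781, and within set B -0.028 to 0.03, which gives no sign of pairing there. Numbers were treated as pairing the libraries, on this check alone, only in the fit over all 4 replicates and in the replicate block. The main fits of set A and of set B had no such term.

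Members and lists were chosen with earlier results of these data known. Named by rule were up to 10 called rises and falls per comparison, the largest changes where under 5 were called, the 10 highest means, the highest of each cluster and 14 members listed by name. Protein classes came from translated GENCODE transcripts (C2H2 pattern C, 2 to 4 residues, C, 12, H, 3 to 5, H). Clusters joined ZNF genes no more than 1 Mb apart, with at least 5 annotated.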

Additional observations from a re-analysis of the deposited data

Results flagged for a closer look

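In the 4 NCI-H1975 libraries of a group, 1 library stood far from the other 3 in 37 of 192 groups of values (63 genes and the members' summed level, in 3 groups each). About 1 in 20 is the chance rate for independent groups of libraries that are otherwise alike. Here the 4 libraries come from 2 separately normalized tables and recur for every gene, and many genes were named for large changes. The 37 therefore cannot be read as an excess over chance. Of the 37, 31 were in replicate 1 (27 high, 4 low) and 6 in replicate 2, which is the difference between the set A libraries described above.

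Replicate 1 was high in all 3 groups for ZNF257 (control 15.5 FPKM, magnolin 10.1, fraction 10.8), ZNF274 (15.1, 17.4 and 18.5 in that order) and ZNF468 (18, 15.1 and 13.7). It was high in control and fraction for ZNF114 (36.4 and 34.9), ZNF415 (7.65 and 6.11), ZNF432 (43.2 and 29.4) and ZNF880 (28.3 and 23.0), and in control and magnolin for ZNF787 (28.9 and 31.8). In control alone it was high for ZNF100 (16.5 FPKM), ZNF430 (9.69), ZNF524 (7.57), ZNF837 (6.98) and ZNF888 (13.4), and with the fraction alone for ZNF331 (12.5), ZNF714 (14.5) and ZNF85 (11.7).

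Replicate 1 was low for ZNF563 in control (1.02 FPKM) and, with magnolin, for ZNF121 (11.8), ZNF266 (12.6) and ZNF791 (2.91). Replicate 2 was low for ZNF324 (2.22) and ZNF91 (3.92) in control, for ZNF528 (5.09), ZNF615 (3.68) and ZNF841 (16.8) with magnolin, and for ZNF135 (1.86) with the fraction.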

How the results depend on the processing

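Of 216 members, 16 passed between fraction and control in set B, 30 with voom on rebuilt reads, 4 with no filter and 10 with the replicate block; leaving out 1 library gave 1 to 24. Between fraction and magnolin 16 passed, 29 with voom, 0 with no filter (where 40 had an unadjusted p under 0.05) and 4 with the block; leaving out 1 library gave 0 to 27. Over all genes, fraction against control gave 2918 calls, and 4115 with voom, 1598 with no filter and 2156 with the block. The cause of these moves was not tested.

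Median-ratio rescaling gave 15 and 11 member calls. No called member reversed its direction over 11 alternatives in either comparison. ZNF581 passed in all 11 between fraction and control, and ZNF93 and ZNF556 in 10. Where a library was left out, its group's lone library was assumed to vary like the others. The other 6 comparisons stayed at 0 member calls in all alternatives run. The count of members lower in HCC827 went from 129 to 115 with rescaling, an alternative chosen after seeing the data. In the other comparisons the replicate block changed no member's call. The comparison of resistant with parental HCC827 cells was not run. With 2 libraries per group and set, and 143.5 to 385.5 reads for the median member, small changes of low genes were not detectable at this depth.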
